A study of Rattus norvegicus with 9 samples.

Results

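The 10 gene symbols followed here are usually associated with cartilage matrix and were measured in cultured rat fibroblasts. They are *Col2a1*, *Col9a1*, *Col9a2*, *Col9a3*, *Col11a2*, *Acan*, *Comp*, *Matn3*, *Chad* and *Hapln1*. They were taken by gene symbol, and all 10 were found among the 32883 genes of the tables. Fibroblasts came from wild-type adult male Lewis rats at 10 weeks of age and were grown in serum-containing medium with a single passage after 3 to 4 days. Fb-Epn were cells of the epineurium, the outer sheath of the sciatic nerve, and Fb-Par were cells of the nerve parenchyma beneath it. Both were separated by hand from sciatic nerves of 2 rats, and Fb-Skn came from abdominal skin of 1 other rat. Each type had 3 libraries, so the 3 cannot be separate animals. Whether they were separate cultures or repeats is not stated in the sources used here, and p-values measure only the spread between these samples. The nerve types differ from Fb-Skn in tissue, animal and body site at once, and these cannot be told apart.

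Cartilage gains tensile strength from thin fibrils in which collagen II is joined by collagens IX and XI. Collagen IX is a heterotrimer of chains encoded by *Col9a1*, *Col9a2* and *Col9a3*, sits on the fibril surface and does not form fibrils by itself. Compression is resisted by aggrecan, a large proteoglycan that binds hyaluronan with the help of the link protein encoded by *Hapln1*. COMP, matrilin-3 and chondroadherin bind collagens or proteoglycans and bridge these networks. In chondrocytes, SOX9 with SOX5 and SOX6 drives many of these genes. In peripheral nerve, the fibroblast matrix consists mostly of collagens I, III and V.

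Total counts were 10084584 to 12310506 per library, so that a floor of 3 counts equals 0.244 to 0.297 CPM (counts scaled to library size). Levels are given as TPM, a scale corrected for gene length and library size, and differences come from edgeR on the counts. The expression filter of edgeR left 13273 genes, among them 8 of the 10. *Col2a1* and *Hapln1* did not pass. The 10 genes were chosen with their levels in view, so their values are a description and carry no test. The fibroblast label was checked on 5 listed markers. All 5 had a mean TPM above 1 in every type, with *Col1a1* at 13724 ± 315 in Fb-Par, 15869 ± 196 in Fb-Epn and 21077 ± 449 in Fb-Skn (SD, n = 3). *Thy1* was at 1006, 710.2 and 3095 TPM and *Pdgfra* at 137, 151 and 80.5 TPM in the same order. The name cartilage-type describes where these genes are best known, and the defining collagen of cartilage was at or near 0 in all 9 libraries.

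The RefSeq promoter table for assembly GRCr8 held 8 of the 10 genes. *Col2a1* and *Col9a3* had no match there. Each window covers 250 bases before and 50 after an annotated start, and the 250 bases upstream are shown for 3 genes. *Col9a1* and *Col9a2* are shown because they encode chains of 1 molecule and differed in pattern between the fibroblasts, and *Hapln1* because it alone held a searched motif. *Col9a1* is known to have a long and a short form from separate promoters. Gene counts do not separate these forms, and which form the window stands for is not given in the table. Capitals mark the letters ACAAAG, 1 of the 2 core sequences of SOX factors that were searched.

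*Col9a1* (GRCr8 chr9:34081114-34081363, plus strand): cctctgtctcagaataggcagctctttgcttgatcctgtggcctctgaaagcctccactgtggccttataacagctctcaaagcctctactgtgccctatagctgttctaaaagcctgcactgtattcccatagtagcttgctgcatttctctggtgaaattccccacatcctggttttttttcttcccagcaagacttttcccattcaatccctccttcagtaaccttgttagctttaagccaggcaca
*Col9a2* (GRCr8 chr5:139892548-139892797, plus strand): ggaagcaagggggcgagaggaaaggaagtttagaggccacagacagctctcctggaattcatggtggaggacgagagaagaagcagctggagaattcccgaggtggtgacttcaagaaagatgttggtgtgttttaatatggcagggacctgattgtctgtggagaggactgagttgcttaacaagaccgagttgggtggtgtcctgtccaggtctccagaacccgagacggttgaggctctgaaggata
*Hapln1* (GRCr8 chr2:22366717-22366966, plus strand): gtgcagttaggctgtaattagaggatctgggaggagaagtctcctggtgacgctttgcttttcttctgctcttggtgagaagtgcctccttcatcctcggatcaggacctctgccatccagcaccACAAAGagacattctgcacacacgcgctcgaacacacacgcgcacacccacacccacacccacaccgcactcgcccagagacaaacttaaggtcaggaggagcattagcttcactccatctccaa

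Both ACAAAG and AACAAT were searched on both strands of the 300 bases. Only the *Hapln1* window held 1, an ACAAAG that begins 125 bases upstream of the start. Of all 33469 windows of this length, 18.8% held ACAAAG, 11.7% held AACAAT and 27.7% held either. The other 7 windows, *Col9a1* and *Col9a2* included, did not contain these letters. GC content ranged from 49.3% for *Col9a1* to 73.0% for *Acan*, beside a median of 51.7% over all windows.

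**Figure D1:**
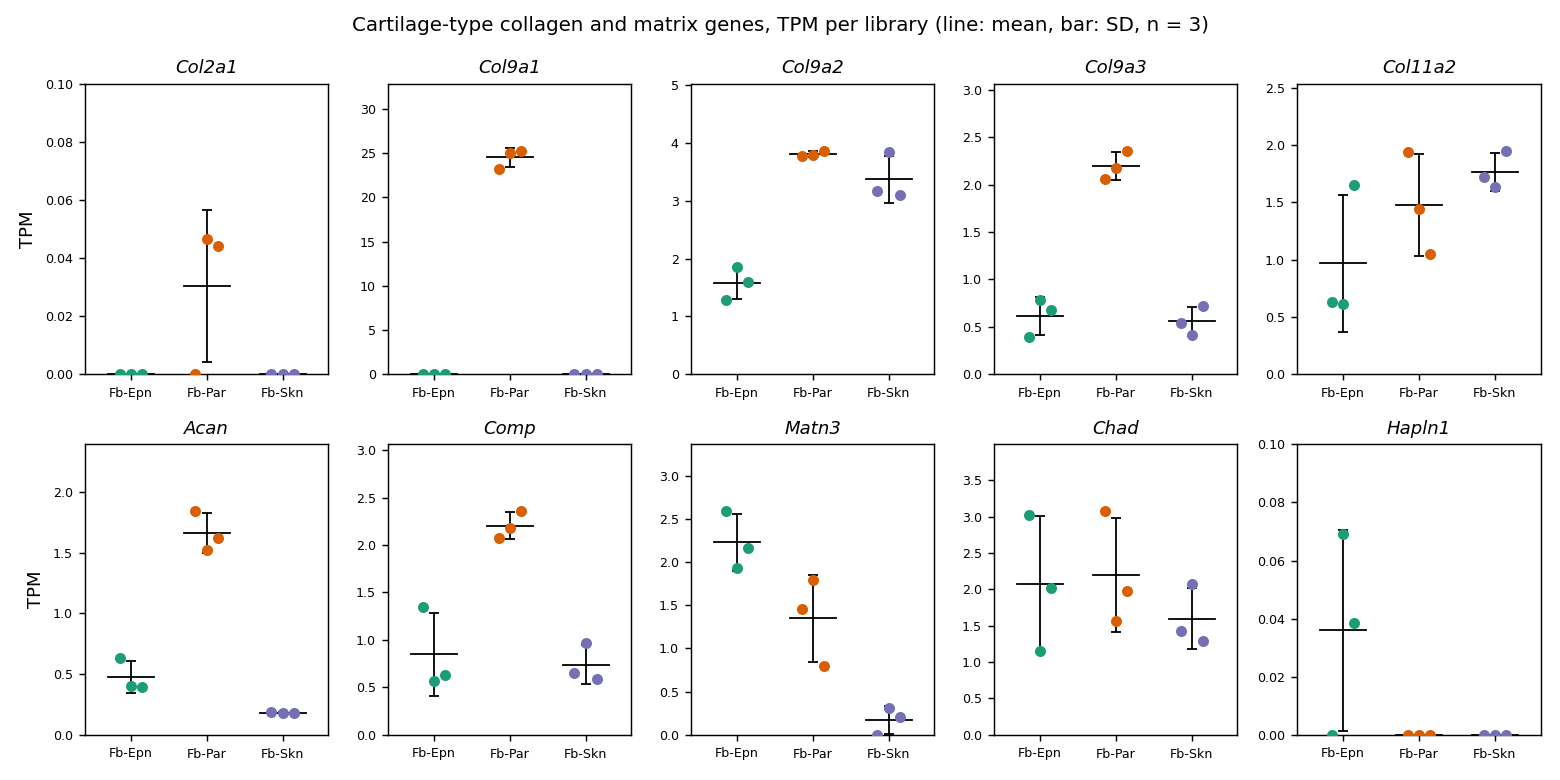
TPM of the 10 genes (vertical axes, each with its own scale from 0) in the 3 libraries of each fibroblast type. Points are libraries, lines are means and bars are SD. *Col9a1* is near 0 outside Fb-Par, where it lies between 23.3 and 25.3 TPM, while *Col2a1* and *Hapln1* stay below 0.1 TPM throughout.

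*Col9a1* (ENSRNOG00000012920), which encodes the α1 chain of collagen IX, lies on the plus strand of chromosome 9 of rn6 from 30419001 to 30502298. Its counts were 485, 452 and 480 in the Fb-Par libraries. In Fb-Epn they were 1, 0 and 0, and in Fb-Skn they were 0, 0 and 1. The groups were separated completely, and both other types lay under the floor of 3 counts. Fb-Par was thus at least 162-fold higher than Fb-Epn and at least 140-fold higher than Fb-Skn, and no fold is given between Fb-Epn and Fb-Skn. The TPM in Fb-Par was 24.5 ± 1.11 (SD, n = 3), a coefficient of variation of 4.53% where counting alone gives 4.60%. This placed *Col9a1* at rank 5737 of all genes by mean TPM in Fb-Par. Among 42 collagen genes it ranked 19th in Fb-Par, 38th in Fb-Epn and 36th in Fb-Skn.

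*Col9a2* (ENSRNOG00000011502, chromosome 5, 139963002 to 139979864, plus strand) encodes the α2 chain and followed another order. Its TPM was 1.28, 1.85 and 1.599 in Fb-Epn, 3.77, 3.78 and 3.87 in Fb-Par, with 3.17, 3.84 and 3.10 in Fb-Skn. Fb-Epn was the lowest type without overlap, and Fb-Par and Fb-Skn overlapped. The log2 fold change of Fb-Epn was -1.25 (SE 0.210) against Fb-Par and -1.23 (SE 0.212) against Fb-Skn. Between Fb-Par and Fb-Skn it was 0.03 (95% interval -0.36 to 0.41).

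*Col9a3* (ENSRNOG00000009531, chromosome 3, 176102351 to 176124306, plus strand), the α3 chain, had 23, 21 and 24 counts in Fb-Par. It had 4, 9 and 7 counts in Fb-Epn and 6, 4 and 7 in Fb-Skn. Fb-Par was higher than both without overlap, at a mean TPM of 2.19 ± 0.152 against 0.614 ± 0.201 and 0.556 ± 0.152 (SD, n = 3). The log2 fold change of Fb-Epn against Fb-Par was -1.79 (SE 0.366) and that of Fb-Par against Fb-Skn was 1.81 (SE 0.378). Fb-Epn and Fb-Skn did not differ beyond their spread (0.02, SE 0.444).

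The balance of the collagen IX chains therefore differed between the types. Summed over the 3 chains, TPM was 2.21 ± 0.455 in Fb-Epn, 30.5 ± 1.28 in Fb-Par, with 3.95 ± 0.280 in Fb-Skn (SD, n = 3). *Col9a1* made up 80.3% ± 0.420 of this sum in Fb-Par, *Col9a2* 12.5% ± 0.416 and *Col9a3* 7.18% ± 0.260. In Fb-Skn *Col9a2* made up 85.3% ± 5.09, and in Fb-Epn 71.7% ± 2.28. The *Col9a2* to *Col9a3* ratio of TPM was 1.74 ± 0.0958 in Fb-Par, 2.68 ± 0.524 in Fb-Epn and 6.51 ± 2.55 in Fb-Skn. Transcripts of all 3 chains were above 1 TPM in Fb-Par only, and the other types had *Col9a2* with little *Col9a3* and a *Col9a1* at the limit of detection.

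*Col2a1* (ENSRNOG00000058560, chromosome 7, 139455242 to 139483997, minus strand), the chain of the main cartilage collagen, had 1 count in each of Fb-Par 2 and Fb-Par 3 and 0 in the other 7 libraries. It was not detectable above the floor at this depth, so *Col9a1* in Fb-Par was measured without detectable *Col2a1*. *Col11a2* (ENSRNOG00000000463, chromosome 20, 3830164 to 3859018, plus strand) encodes a chain of collagen XI. Its TPM was 0.632, 0.615 and 1.65 in Fb-Epn, 1.94, 1.44 and 1.05 in Fb-Par, with 1.72, 1.63 and 1.95 in Fb-Skn. The types overlapped in every comparison, and Fb-Epn 3 stood apart from the other Fb-Epn libraries. The log2 fold change was -0.61 (SE 0.345) for Fb-Epn against Fb-Par, -0.41 (SE 0.328) for Fb-Par against Fb-Skn and -1.01 (SE 0.341) for Fb-Epn against Fb-Skn. Without Fb-Epn 3 the changes of Fb-Epn were -1.23 against Fb-Par and -1.63 against Fb-Skn.

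*Col11a1*, the partner of *Col11a2* in collagen XI and outside the 10 genes, was far more abundant and ordered differently. Its TPM was 106, 110 and 102 in Fb-Epn, 456, 467 and 471 in Fb-Par, with 30.5, 33.0 and 31.8 in Fb-Skn. The 3 types did not overlap, and Fb-Par was 4.35-fold above Fb-Epn (adjusted p = 9.4e-16, edgeR) and 13.2-fold above Fb-Skn (adjusted p = 6.8e-18, edgeR). *Col11a1* ranked 10th among the 42 collagen genes in Fb-Par, 15th in Fb-Epn and 17th in Fb-Skn. The ratio of *Col11a1* to *Col11a2* TPM was 136 ± 64.6 in Fb-Epn, 336 ± 107 in Fb-Par, with 18.1 ± 1.98 in Fb-Skn (SD, n = 3). Of the fibril collagens of cartilage, the high level in Fb-Par was therefore seen for *Col11a1*, and neither for *Col11a2* nor for *Col2a1*.

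*Acan* (ENSRNOG00000028992, chromosome 1, 140762758 to 140824441, plus strand), which encodes the aggrecan core protein, was low in all types but ordered Fb-Par, Fb-Epn, Fb-Skn. Its counts were 70, 50 and 56 in Fb-Par, 22, 16 and 14 in Fb-Epn, and 7, 6 and 6 in Fb-Skn. No 2 types overlapped. The mean TPM was 1.66 ± 0.164, 0.478 ± 0.133 and 0.182 ± 0.00250 (SD, n = 3) in that order. The SD in Fb-Skn is smaller than counting error on 6 or 7 counts allows for and says little about the precision. Fb-Par was 8.19-fold above Fb-Skn (log2 fold change 3.01, SE 0.293). The log2 fold change was -1.78 (SE 0.252) for Fb-Epn against Fb-Par and 1.23 (SE 0.329) for Fb-Epn against Fb-Skn.

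*Hapln1* (ENSRNOG00000032002, chromosome 2, 18354542 to 18419071, plus strand), the link protein, had 0, 2 and 1 counts in Fb-Epn and 0 in the other 6 libraries. It was not detectable above the floor of 3 counts in any type. Versican, the related proteoglycan of soft tissues encoded by *Vcan*, was compared with *Acan* after its values were known. Its TPM was 140, 139 and 129 in Fb-Epn, 59.2, 56.1 and 59.3 in Fb-Par, with 102, 120 and 114 in Fb-Skn. Fb-Par had the lowest *Vcan* and the highest *Acan*. The ratio of *Vcan* to *Acan* TPM was 35.2 ± 2.67 in Fb-Par, 297 ± 65.2 in Fb-Epn and 614 ± 57.6 in Fb-Skn (SD, n = 3), so versican transcripts exceeded aggrecan transcripts in every library. The ratio in Fb-Skn divides by 6 or 7 counts of *Acan* per library. Counting alone gives a coefficient of variation of 39.7% for *Acan* there, so the SD of that ratio says little about its precision.

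*Comp* (ENSRNOG00000048472, chromosome 16, 20798437 to 20807070, minus strand) encodes COMP, a thrombospondin-family protein that binds fibrillar collagens. Its counts were 32, 29 and 33 in Fb-Par, 19, 9 and 9 in Fb-Epn, and 10, 13 and 8 in Fb-Skn. Fb-Par lay above both other types, which overlapped. The mean TPM was 2.20 ± 0.140 in Fb-Par, 0.847 ± 0.434 in Fb-Epn and 0.740 ± 0.204 in Fb-Skn (SD, n = 3). The log2 fold change was -1.37 (SE 0.349) for Fb-Epn against Fb-Par and 1.42 (SE 0.358) for Fb-Par against Fb-Skn. Between Fb-Epn and Fb-Skn it was 0.05 (SE 0.397).

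*Matn3* (ENSRNOG00000056141, chromosome 6, 34071428 to 34091048, plus strand), which encodes matrilin-3, was the gene with its highest level in Fb-Epn. Its counts were 26, 22 and 22 in Fb-Epn, 16, 17 and 8 in Fb-Par, with 0, 3 and 2 in Fb-Skn. The nerve types did not overlap with each other or with Fb-Skn, which was at the floor. Fb-Epn was at least 6.72-fold and Fb-Par at least 4.05-fold higher than Fb-Skn. The log2 fold change of Fb-Epn against Fb-Par was 0.73 (SE 0.408, 95% interval -0.07 to 1.53), an interval that includes 0. The mean TPM was 2.23 ± 0.330, 1.35 ± 0.504 and 0.174 ± 0.160 (SD, n = 3).

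*Chad* (ENSRNOG00000003304, chromosome 10, 82292110 to 82296651, plus strand), which encodes chondroadherin, overlapped in all comparisons. Its TPM was 3.02, 1.16 and 2.02 in Fb-Epn, 3.07, 1.56 and 1.97 in Fb-Par, with 1.43, 2.07 and 1.28 in Fb-Skn. The 3 log2 fold changes were between -0.10 and 0.33, with SEs from 0.364 to 0.378. These values are uncertain for a further reason. *Chad* lies inside *Acsf2*, a gene on the opposite strand from 82284720 to 82326771 that had 144 to 308 counts per library, and the strand setting of the counting is not stated in the sources used here. Without strand, reads of the 2 genes cannot be told apart. *Chad* had 7.11 to 18.3 counts per 100 counts of *Acsf2*.

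The deposited FPKM, another scale corrected for gene length, gave another level for *Chad*. Scaled to the sum of TPM in each library, FPKM was 0.0294 of the TPM for *Chad* over the 9 libraries. Over 13457 genes the median ratio was 1.03, with 5% to 95% of genes between 0.754 and 1.20, and 0.639% of genes were at or below the ratio of *Chad*. The other 9 genes had ratios of 0.897 to 1.15. In 3 libraries, Fb-Epn 2, Fb-Epn 3 and Fb-Par 2, the FPKM of *Chad* was 0 although the count table held 16 to 25 counts. The level of *Chad* therefore depends on which deposited table is read, and its counts were not taken as evidence of expression.

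**Figure D2:**
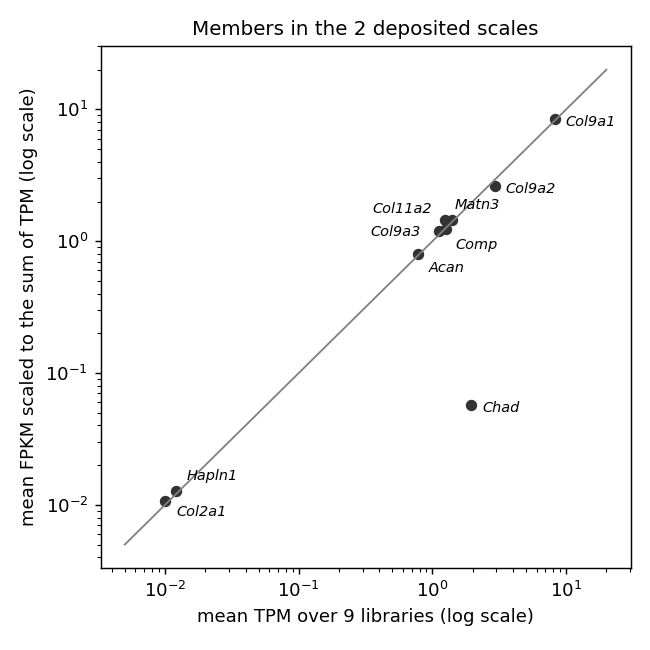
Mean FPKM scaled to the sum of TPM against mean TPM over the 9 libraries for the 10 genes, both axes logarithmic, with the line of equality. *Chad* lies far below the line at a ratio of 0.0294, and the other 9 genes lie close to it.

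**Figure D3:**
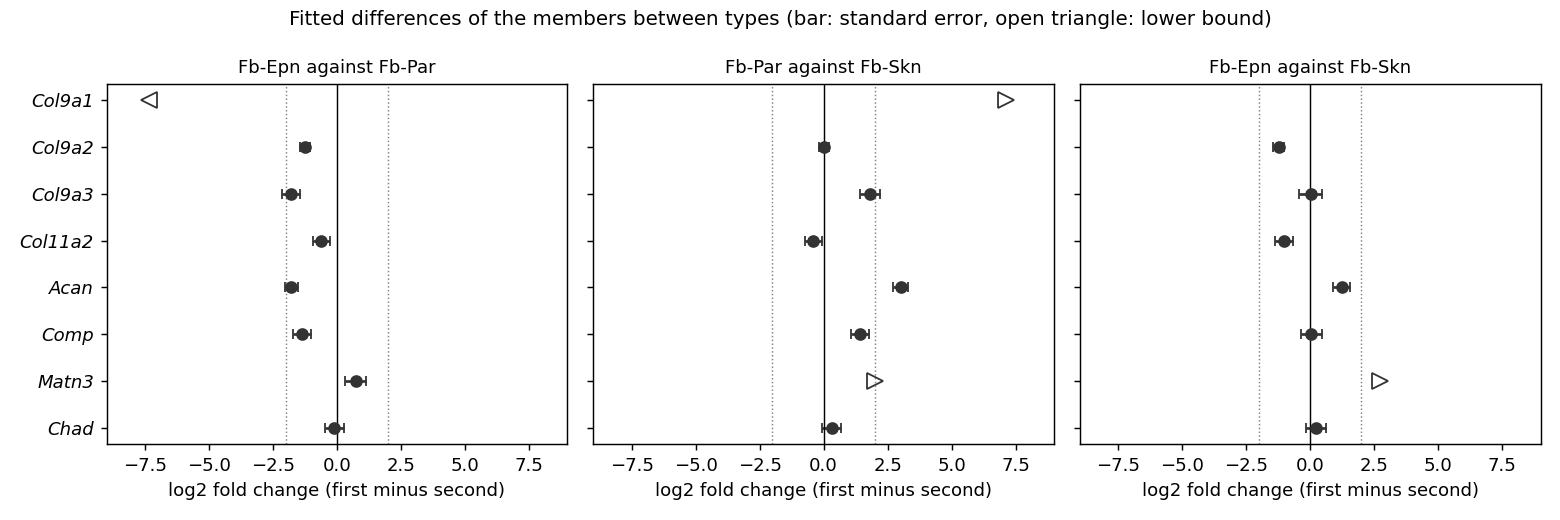
Log2 fold changes from edgeR for the 8 tested genes in the 3 comparisons, with the standard error as a bar and dotted lines at a log2 fold change of 2 in either direction. Open triangles are lower bounds for genes whose lower type was at or under 3 counts in every library, and *Col9a1* is not drawn for Fb-Epn against Fb-Skn, where both types were under that floor. The points for Fb-Epn against Fb-Par lie at or below 0 except that of *Matn3*.

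DE genes were defined by an adjusted p under 0.01 with a log2 fold change above 2 or below -2. Of the 8 tested genes, *Col9a1* met this between Fb-Epn and Fb-Par, where 6.48% of all tested genes did. Between Fb-Par and Fb-Skn, *Col9a1*, *Acan* and *Matn3* met it, beside 8.54% of all tested genes, and between Fb-Epn and Fb-Skn *Matn3* did, beside 8.44%. The adjusted p alone was passed by 5, 5 and 3 of the 8, beside 38.8%, 45.6% and 43.9% of all tested genes. Because the 10 were picked from these contrasts, nothing is read from these counts. The median log2 fold change of the 8 was -1.31, 1.61 and 0.03 in the 3 comparisons, where that of all tested genes was 0.00, -0.01 and 0.00. Some changes lay close to the threshold. Without Fb-Epn 1 the log2 fold change of *Acan* between Fb-Epn and Fb-Par was -2.02, and without Fb-Epn 2 that of *Col9a3* was -2.01. Without Fb-Skn 3 the change of *Col9a3* between Fb-Par and Fb-Skn was 2.01.

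Summed over the 10 genes, TPM was 39.5, 39.5 and 39.3 in Fb-Par, 9.94, 7.37 and 9.18 in Fb-Epn, and 7.70, 9.43 and 8.09 in Fb-Skn. *Col9a1* alone was 62.2% ± 2.85 (SD, n = 3) of the sum in Fb-Par. Without it the sum in Fb-Par was 14.9 TPM. The 10 genes did not follow 1 pattern. *Col9a1*, *Col9a3*, *Acan* and *Comp* were highest in Fb-Par, *Matn3* was highest in Fb-Epn, *Col9a2* was lowest in Fb-Epn, *Col11a2* and *Chad* overlapped between the types, and *Col2a1* and *Hapln1* were at the floor.

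The genes most like *Col9a1* were taken by Pearson's r of log2(TPM + 1) over the 9 libraries among 9665 genes with a mean TPM of at least 10 in some type. The 9 libraries share their types in groups of 3, so that r mostly reflects the means of the types. The 5 highest were *Ntng1*, *Col8a1*, *Plpp3*, *Sqstm1* and *Psap*, and 58 genes had r above 0.99. *Ntng1*, which encodes netrin-G1, was at 15.7 TPM in Fb-Par, 0.944 in Fb-Epn and 0.962 in Fb-Skn. *Col8a1*, a network-forming short-chain collagen, was at 1683, 346 and 332 TPM in the same order. The fold in *Psap*, a lysosomal gene at 1171, 908.001 and 916 TPM, was much smaller, since r takes no account of the size of a difference. For *Comp* the highest were *Klhl21*, *Cxxc5*, *Podxl2*, *Tmem126a* and *Tmem184c*, with r from 0.966 to 0.985. The list for *Col2a1* rests on 2 counts in all and is not given.

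Beside these 10 genes, 78 companion genes of the cartilage program in 7 lists were examined. Of these, 77 were in the tables and 59 passed the expression filter. DE genes numbered 14 between Fb-Epn and Fb-Par, 23.7% of the 59 beside 6.48% of all tested genes. Of the 14, 6 were higher in Fb-Epn and 8 in Fb-Par, directions in which 4.09% and 2.39% of all tested genes were called. They numbered 19 between Fb-Par and Fb-Skn, 32.2% beside 8.54% of all tested genes. Of the 19, 15 were higher in Fb-Par and 4 in Fb-Skn, where 5.86% and 2.67% of all tested genes were called. Between Fb-Epn and Fb-Skn there were 17, 28.8% beside 8.44% of all tested genes. Of the 17, 13 were higher in Fb-Epn and 4 in Fb-Skn, where 6.22% and 2.22% of all tested genes were called. In all, 25 companion genes were DE genes in at least 1 comparison. The lists were written with earlier results of these data known. The counts describe the lists only, and the p-values of companions are not independent support.

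**Figure D4:**
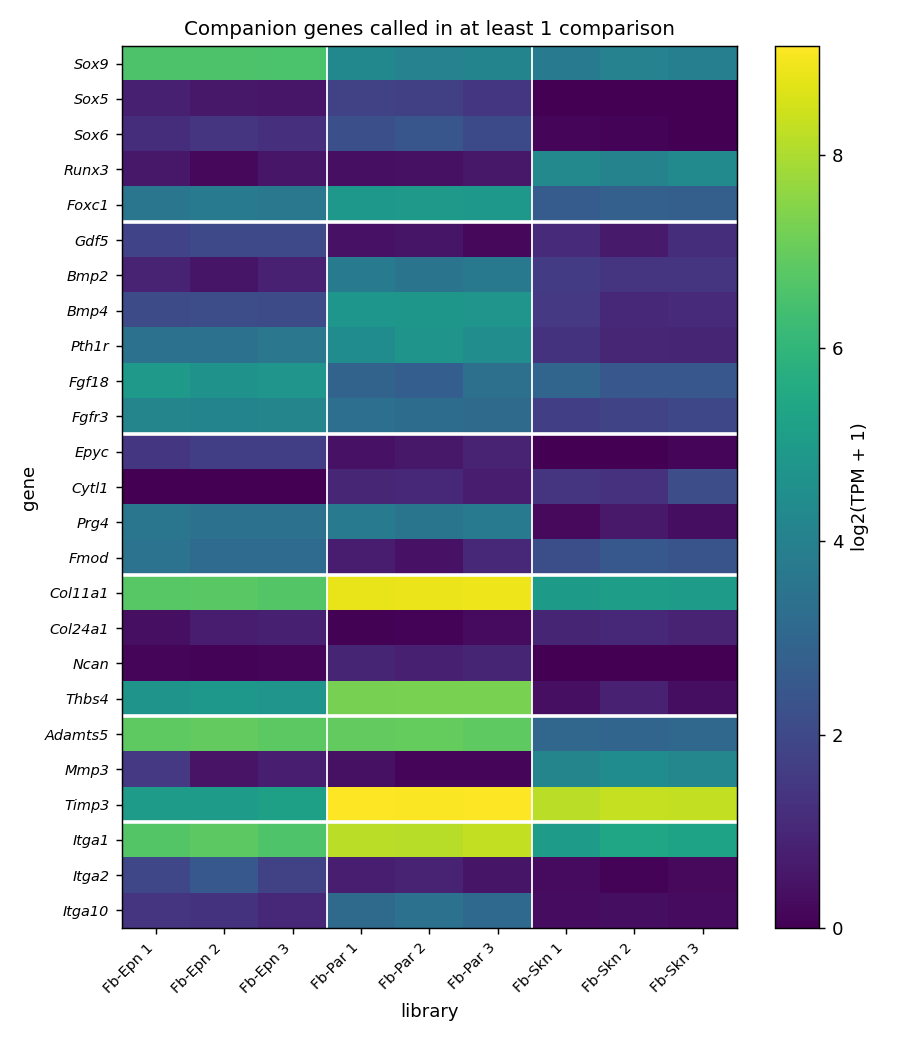
Log2(TPM + 1) (colour) of the 25 companion genes that were DE genes in at least 1 comparison (rows, separated by list) in the 9 libraries (columns). *Sox9* is highest in the Fb-Epn libraries at 92.5 to 94.5 TPM, and *Col11a1* and *Timp3* are brightest in Fb-Par.

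Of the transcription factors of cartilage, 9 of 12 were tested. *Sox9*, the master regulator of chondrocytes, was highest in Fb-Epn. Its TPM was 94.5, 93.2 and 92.5 in Fb-Epn, 18.2, 15.4 and 16.2 in Fb-Par, with 12.7, 15.4 and 14.5 in Fb-Skn. Fb-Epn lay far above both other types, and the lowest Fb-Par library was just above the highest Fb-Skn library. Fb-Epn was 5.66-fold above Fb-Par (adjusted p = 3.9e-13, edgeR) and 5.98-fold above Fb-Skn (adjusted p = 2.7e-13, edgeR). Between Fb-Par and Fb-Skn the log2 fold change was 0.08 (95% interval -0.07 to 0.23, adjusted p = 0.38, edgeR). *Col9a1* was at 0 or 1 count in Fb-Epn, the type with the most *Sox9*. Fb-Par and Fb-Skn, with *Sox9* at means of 16.6 and 14.2 TPM, differed at least 140-fold in *Col9a1*. Whether these factors regulate *Col9a1* in these cells was not tested.

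*Sox5* and *Sox6*, which encode the SOX factors that act with SOX9 in chondrocytes, were highest in Fb-Par. *Sox5* had 45, 38 and 30 counts in Fb-Par, 13, 10 and 8 in Fb-Epn, and 0 in every Fb-Skn library. *Sox6* had 62, 66 and 48 counts in Fb-Par, 20, 29 and 22 in Fb-Epn, and 2, 1 and 0 in Fb-Skn. Neither gene overlapped between types, and both were under the floor in Fb-Skn. Against Fb-Skn, *Sox5* was at least 11.1-fold higher in Fb-Par (adjusted p = 9.1e-07, edgeR) and *Sox6* at least 17.4-fold (adjusted p = 1.0e-07, edgeR). Between Fb-Epn and Fb-Par the log2 fold change was -1.89 (SE 0.334) for *Sox5* and -1.36 (SE 0.279) for *Sox6* (adjusted p = 0.00045 and 0.00096, edgeR). Without Fb-Epn 1 or without Fb-Par 3 the change of *Sox5* between the nerve types was -2.12 or -2.02 and met the threshold for DE genes. Both genes were low, at means of 2.14 and 3.75 TPM in Fb-Par. *Foxc1*, a forkhead factor, was at 28.4 TPM in Fb-Par and 5.69 in Fb-Skn, a 4.49-fold difference ( adjusted p = 1.3e-11, edgeR). *Runx3*, a RUNX-family transcription factor, was at 17.9 ± 1.89 TPM (SD, n = 3) in Fb-Skn and had 1 to 3 counts in each nerve library.

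**Figure D5:**
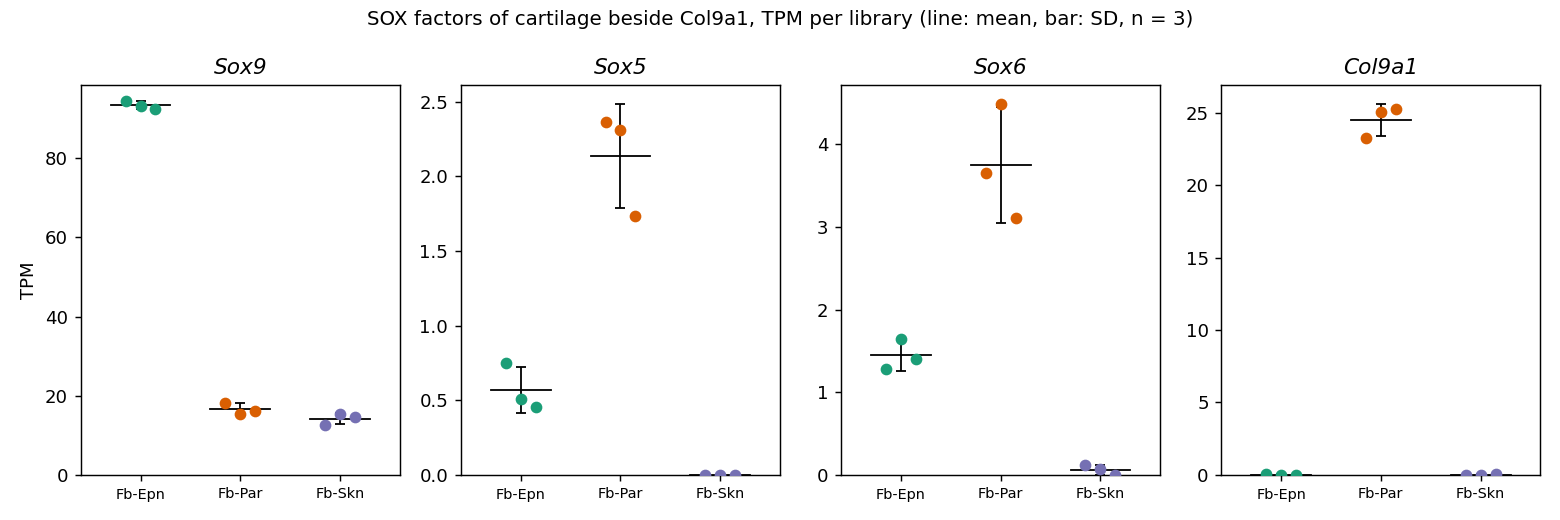
TPM of *Sox9*, *Sox5*, *Sox6* and *Col9a1* (vertical axes, each with its own scale from 0) in the 3 libraries of each type, with the mean as a line and SD as a bar. *Sox9* is highest in Fb-Epn, and *Sox5*, *Sox6* and *Col9a1* are highest in Fb-Par.

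Of the growth signals and receptors, 9 of 10 in the tables were tested. *Bmp2* and *Bmp4*, bone morphogenetic proteins that act on chondrocyte precursors, were higher in Fb-Par than in both other types. *Bmp2* was at 11.5 ± 0.921 TPM in Fb-Par, 0.705 ± 0.231 in Fb-Epn and 1.74 ± 0.236 in Fb-Skn (adjusted p = 1.1e-09 and 3.5e-08, edgeR). *Bmp4* was at 26.7 ± 0.872, 3.34 ± 0.0754 and 1.37 ± 0.438 TPM in the same order (adjusted p = 5.4e-10 and 5.2e-11, edgeR). *Pth1r*, the receptor of parathyroid hormone-related protein, was high in both nerve types, at 10.3 TPM in Fb-Epn and 22.5 in Fb-Par against 1.13 in Fb-Skn. Another set was highest in Fb-Epn. *Gdf5*, a growth factor of joint tissue, in Fb-Epn exceeded Fb-Par at least 7.29-fold, and *Fgf18* and *Fgfr3*, a ligand and receptor of the growth plate, in Fb-Epn exceeded Fb-Skn 4.49-fold and 5.76-fold.

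In the list of other cartilage matrix genes, 8 of 18 were tested. *Prg4*, which encodes the joint lubricant lubricin, was at 10.1 TPM in Fb-Epn and 11.8 in Fb-Par against 0.321 in Fb-Skn (adjusted p = 2.1e-10 and 9.8e-11, edgeR). *Fmod*, which encodes the collagen-binding proteoglycan fibromodulin, was lowest in Fb-Par, at 0.682 ± 0.363 TPM against 8.75 ± 1.08 in Fb-Epn and 4.14 ± 0.556 in Fb-Skn (SD, n = 3). *Epyc*, which encodes epiphycan, was at 2.06 TPM in Fb-Epn and 0.574 in Fb-Par with 0 or 1 count in Fb-Skn. Its call between Fb-Par and Fb-Skn was lost (adjusted p = 0.015 to 0.017, edgeR) without Fb-Par 3, Fb-Skn 1 or Fb-Skn 2. *Cytl1*, which encodes a secreted protein of chondrocytes, had 13 to 31 counts in Fb-Skn, 6 to 10 in Fb-Par and 0 in Fb-Epn.

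Of the chain partners and family members, 12 of 15 were tested, and *Thbs4* showed the widest range. It encodes thrombospondin-4, a close relative of COMP. Its TPM was 25.5, 28.3 and 26.3 in Fb-Epn, 150, 156 and 155 in Fb-Par, with 0.285, 0.783 and 0.259 in Fb-Skn. The types did not overlap, and Fb-Par was 5.71-fold above Fb-Epn (adjusted p = 6.6e-13, edgeR) and 314-fold above Fb-Skn (adjusted p = 7.7e-16, edgeR). The latter fold rests on 4 to 12 counts per Fb-Skn library. It was 493 in the fit without Fb-Skn 2, 266 without Fb-Skn 1 and 263 without Fb-Skn 3. *Ncan*, which encodes the brain proteoglycan neurocan, had 18 to 26 counts in Fb-Par and at most 3 in any other library. It was called also between Fb-Epn and Fb-Skn (adjusted p = 0.0093, edgeR), where both types are under the floor and no fold is given. *Col24a1*, a fibrillar collagen, was lowest in Fb-Par, at 0.0981 TPM against 0.558 in Fb-Epn and 0.921 in Fb-Skn. Its call between Fb-Epn and Fb-Par was lost (adjusted p = 0.012 to 0.018, edgeR) without Fb-Epn 2, Fb-Epn 3, Fb-Par 1 or Fb-Par 2.

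Among 7 tested genes of matrix degradation, *Adamts5*, an aggrecan-cleaving protease, was at 116 ± 3.87 TPM in Fb-Epn and 120 ± 5.02 in Fb-Par against 7.09 ± 0.172 in Fb-Skn (adjusted p = 7.6e-16 and 5.1e-16, edgeR). *Timp3*, a matrix-bound inhibitor of such proteases, was at 549 ± 13.1 TPM in Fb-Par, 306 ± 17.2 in Fb-Skn and 33.1 ± 2.01 in Fb-Epn. *Timp3* overlaps *Syn3*, with which its reads could be shared. *Mmp3*, or stromelysin-1, was at 18.4 TPM in Fb-Skn and 0.99 and 0.187 in Fb-Epn and Fb-Par. Its call between the nerve types (adjusted p = 0.0085, edgeR) was lost when any 1 library other than Fb-Epn 2 or Fb-Epn 3 was left out, with an adjusted p of 0.093 without Fb-Epn 1. It was also lost with the replicate number as a block (adjusted p = 0.012, edgeR).

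Of the matrix receptors, all 7 were tested. *Itga10*, the α10 subunit of a collagen II-binding integrin of chondrocytes, was at 8.41 ± 1.04 TPM in Fb-Par, 1.40 ± 0.342 in Fb-Epn and 0.225 ± 0.0225 in Fb-Skn (SD, n = 3). Fb-Par was 5.94-fold above Fb-Epn (adjusted p = 2.0e-08, edgeR) and 33.6-fold above Fb-Skn (adjusted p = 1.9e-10, edgeR). *Itga1*, the α1 subunit, was at 292 TPM in Fb-Par, 104 in Fb-Epn and 36.9 in Fb-Skn, and overlaps *Pelo*. *Itga2*, the α2 subunit, was highest in Fb-Epn, at 3.35 ± 1.15 TPM against 0.648 ± 0.209 in Fb-Par and 0.136 ± 0.0717 in Fb-Skn, and overlaps 2 unnamed genes. Its call between Fb-Par and Fb-Skn was lost (adjusted p = 0.011 to 0.020, edgeR) without Fb-Par 1, Fb-Par 2, Fb-Skn 2 or Fb-Skn 3. In the list of sulfation and proteoglycan synthesis, 3, 5 and 3 of 7 genes passed the adjusted p in Fb-Epn against Fb-Par, Fb-Par against Fb-Skn and Fb-Epn against Fb-Skn. These are 42.9%, 71.4% and 42.9% of the list, beside 38.8%, 45.6% and 43.9% of all tested genes. The log2 fold changes of that list lay between -1.65 and 1.78 in all 3 comparisons, inside the threshold for DE genes.

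Markers of other cells that a nerve or skin culture could hold moved with the types as well. Of 8 Schwann cell markers in the tables, all 8 had a mean TPM above 1 in Fb-Par and in Fb-Epn, and 2 of 8 did in Fb-Skn. Their summed TPM was 268 to 275 in Fb-Par, 193 to 203 in Fb-Epn and 10.5 to 13.2 in Fb-Skn, where *Sox10*, *Erbb3* and *Cdh19* were at 0 in every library. *Sox10*, the defining factor of Schwann cells, was at 30.9 ± 1.20 TPM in Fb-Par and 14.5 ± 0.596 in Fb-Epn. *S100b*, a calcium-binding protein of Schwann cells, was at 119 TPM in Fb-Par and 130 in Fb-Epn. The 6 pericyte and smooth muscle markers summed to 246 to 264 TPM in Fb-Par, 38.3 to 44.3 in Fb-Epn and 149 to 154 in Fb-Skn. *Myh11* made up most of this, at 164, 24.6 and 125 TPM in the same order, with *Cspg4* at 73.1, 8.48 and 26.4. *Rgs5* was at 14.9 TPM in Fb-Par and 4.49 in Fb-Epn, and *Des* at 0.389 and 1.38. *Kcnj8* and *Abcc9* overlapped between the nerve types, and *Rgs5* and *Kcnj8* were at 0 in Fb-Skn. The 6 macrophage markers summed to 261 to 278 TPM in Fb-Epn, 66.6 to 69.2 in Fb-Par and 13.9 to 18.2 in Fb-Skn. In bulk RNA, fewer cells of a type and less RNA per cell cannot be told apart, and the part of these cells in the levels of *Col9a1*, *Acan*, *Comp* and their companions was not tested.

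Other marker lists were also each led by 1 or 2 genes. Endoneurial markers, a list that includes *Sox9* itself, summed to 139 to 158 TPM in Fb-Skn, 198 to 209 in Fb-Par and 257 to 258 in Fb-Epn. In a sum without *Sox9*, added after the values were seen, the order of the nerve types turned, with 162 to 166 TPM in Fb-Epn, 183 to 193 in Fb-Par and, in Fb-Skn, 127 to 143. *Pdgfra* made up most of that sum, at 137 TPM in Fb-Par, 151 in Fb-Epn and 80.5 in Fb-Skn. *Osr2* was at 32.9, 6.45 and 20.7 TPM in the same order, and *Etv1* at 11.2, 1.48 and 1.79. *Wif1*, at 1.71, 1.94 and 24.4 TPM, and *Abca9*, at 6.50, 3.04 and 8.66, were highest in Fb-Skn. Perineurial markers summed to 211 to 216 TPM in Fb-Epn, 87.5 to 94.9 in Fb-Par and 113 to 125 in Fb-Skn, with *Lypd2* at 0 in all libraries. *Slc2a1*, the glucose transporter, set this order. *Cldn1*, the tight junction claudin that marks perineurium, was at 0.324 TPM in Fb-Par, 0.1001 in Fb-Epn and 0 in Fb-Skn, and *Krt19* at 0.231, 0 and 0.0442. Adipocyte markers summed to 44.7 to 58.9 TPM in Fb-Epn, 22.0 to 23.6 in Fb-Par and 1.26 to 1.45 in Fb-Skn. Nearly all of this in Fb-Epn was *Fabp4* at 51.4 TPM, while *Pparg*, the fat cell regulator, was at 6.17 TPM in Fb-Par and 0.895 in Fb-Epn. Endothelial markers summed to at most 11.2 TPM and keratinocyte markers to at most 4.16 in any library. The 6 markers of bone and hypertrophic cartilage summed to 4.59 to 4.89 TPM in Fb-Par, 1.17 to 2.37 in Fb-Epn and 1.00 to 2.53 in Fb-Skn. In Fb-Par this was mostly *Phex*, an osteocyte gene with 79 to 84 counts there and at most 9 elsewhere, and *Bglap* and *Ibsp* had at most 3 counts in all libraries.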

How the data were processed

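Cultured fibroblasts of 3 types (Fb-Epn, Fb-Par, Fb-Skn) were sequenced in 3 poly(A) directional libraries each, with paired reads of 150 bp. Per the submitters' processing notes, the authors used FastQC 0.11.7, Trimmomatic 0.38, HISAT2 2.1.0 and featureCounts 1.6.3 with rn6. The annotation release and the strand setting are not given in the sources used here. The authors deposited raw counts per gene, TPM and FPKM for 32883 genes, and all 3 tables were used. The deposited TPM were the counts divided by a single length for each gene (relative deviation at most 8.4e-09 over 11403 genes). The deposited FPKM are not a rescaling of the counts and served only to compare the levels of the 10 genes between tables.

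Types and replicate numbers came from the sample labels. The counts were fitted in R 4.3.3 with edgeR 4.0.16 (TMM, default expression filter, quasi-likelihood F test) with all 9 libraries in 1 model. Benjamini-Hochberg adjustment ran over the 13273 tested genes of each comparison, at 0.01, with a log2 fold change threshold of 2 in either direction. If no library of the lower type exceeded 3 counts, the fold was computed against a floor of 3 counts per library and given as a lower bound. Floors cover counting error only, while the SEs and intervals of fitted changes include the spread between libraries. With 3 libraries per type, an exact permutation test of a single gene cannot go below p = 0.1. The 10 genes, the companion lists and the marker lists were chosen with earlier results of these data known, so the 10 carry no p-value. The p-values printed for companions set single genes against the spread between libraries and are not independent support. Named companions are all that were DE genes in at least 1 comparison, and *Sox9*, *Sox5*, *Sox6* and *Col11a1* in any case. *Vcan* and the companions named under other observations were chosen after their values were seen. Replicates of a type differed by more than sampling noise (chi-square per degree of freedom 3.31 to 5.48 over 9 pairs). Deviations of same-numbered libraries correlated at -0.08 to 0.02 over 9 pairs, so the numbers were not taken as pairs. No label names a batch, and none could be examined. The fit was tested on simulated counts with known changes. Alternatives used RLE, upper-quartile and library-size scaling, DESeq2 1.42.0, limma 3.58.1 on log2 TPM with pseudocounts of 1 and 0.1, the studentized range on TPM, other filters and thresholds, only the types compared, a replicate block and each library left out. After the values were seen, the summed TPM was recomputed from FPKM, without *Chad* and without *Col9a1*. Python 3.11.15 with matplotlib 3.10.9, numpy 2.4.6 and pandas 2.3.3 served for tables and figures. The cell culture, imaging and animal experiments were not used here. Some marker genes enter the summed levels but are not reported here individually.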

Additional observations from a re-analysis of the deposited data

How the results depend on the processing

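Of 1386 values of named genes under the alternatives, 1326 kept their direction and side of the threshold, 44 lost and 5 gained the call, and 11 changed sign. All 11 came from leaving out 1 library, in comparisons of the 10 genes that were near 0. With each library left out, the log2 fold change of *Col9a2* in Fb-Par against Fb-Skn ranged from -0.034 to 0.12, of *Col9a3* in Fb-Epn against Fb-Skn from -0.20 to 0.25, of *Comp* there from -0.44 to 0.28, of *Chad* in Fb-Epn against Fb-Par from -0.47 to 0.22 and of *Chad* in Fb-Epn against Fb-Skn from -0.15 to 0.52.

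Counts are given for Fb-Epn against Fb-Par, Fb-Par against Fb-Skn and Fb-Epn against Fb-Skn. Of the 10 genes, 8 were tested and 1, 3 and 1 were called, beside 6.48%, 8.54% and 8.44% of all tested genes. A fold change threshold of 1 or none gave 5, 5 and 3. With none, 38.8%, 45.6% and 43.9% of all tested genes passed. Requiring at least 10 counts in every library gave 0, 0 and 0, since genes near the floor in 1 type, *Col9a1*, *Acan* and *Matn3* included, are then not tested. With limma on log2(TPM + 1) the second was 1 and the third 0, a scale that shrinks changes of genes near 1 TPM. The second was 2 with the studentized range on TPM and 2 with only the types compared. Leaving out each library gave 1 to 2, 3 to 4 and 1 to 1. The companion genes called were 14, 19 and 17 of 59 tested. They became 29, 36 and 33 with a fold change threshold of 1, 45, 49 and 48 with none, and 4, 7 and 6 with at least 10 counts in every library. With limma on log2(TPM + 1) they were 7, 13 and 10. The studentized range on TPM gave 11, 20 and 12, and only the types compared gave 11, 18 and 15. Leaving out each library gave 12 to 16, 18 to 21 and 16 to 17. For the other settings the shares of all tested genes were not computed, and nothing is read from these counts.

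With the replicate number as a block, 1, 3 and 1 of the 8 tested genes and 13, 19 and 16 of the 59 tested companions were called. The shares of all tested genes were not computed for that fit, and nothing is read from these counts. Only *Mmp3* between the nerve types (adjusted p = 0.012, edgeR) and *Ncan* in Fb-Epn against Fb-Skn (adjusted p = 0.021, edgeR) lost their calls. The numbers carry no stated pairing.

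The summed TPM of the 10 genes was 39.4 in Fb-Par, 8.83 in Fb-Epn and 8.41 in Fb-Skn. From FPKM it was 38.1, 7.18 and 6.59, and without *Chad* it was 37.2, 6.76 and 6.81. In Fb-Par it was 38.5 from TMM-scaled counts per kilobase and 14.9 without *Col9a1*. Leaving out each library gave 39.4 to 39.5, 8.28 to 9.56 and 7.89 to 8.76. Apart from *Col9a1*, the 10 genes had fewer than 100 counts in every library, which limits their precision, and for *Col2a1* and *Hapln1* the depth allows no comparison.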

Other observations

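Of the 77 companion genes in the tables, 18 did not pass the expression filter, and 7 of these had 0 counts in all 9 libraries. The names that follow were chosen after their values were seen. *Matn1*, which encodes the matrilin most particular to cartilage, *Cnmd*, which encodes chondromodulin, *Ucma*, a secreted protein of the growth plate, and *Ihh*, the hedgehog ligand of prehypertrophic chondrocytes, were at 0 in every library. *Col10a1*, the collagen of hypertrophic cartilage, had 0 to 5 counts per library and *Mmp13*, the main collagenase of cartilage, 1 to 10 counts. *Snorc*, a cartilage proteoglycan gene, had 0 to 2 counts.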
